A study of Homo sapiens with 12 samples.

Results

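Long intergenic noncoding RNAs were followed in 3 human cancer cell lines under low oxygen. Members were the genes of the count table whose symbol was LINC followed by digits alone and which exceeded 0.5 CPM (reads of the gene scaled to a common library size) in at least 2 of the 12 libraries. Of 611 such symbols among 25369 genes, 176 met the level rule, and these were part of 15595 genes that met it in the whole table. The rule used a level over all libraries and no difference between conditions. The lines were RKO, derived from a colon carcinoma, A549, derived from a lung cancer, and H460, derived from a large cell lung carcinoma, each grown as 1 established line. Each was kept in normoxia or in hypoxia of 1% O2 for 24 h, with 2 replicate libraries of poly(A)-selected, strand-specific RNA in each of the 6 groups. The sources describe no genetic engineering of these 3 lines. RKO and A549 cells grew in DMEM and H460 cells in RPMI, so medium and line cannot be told apart for H460. Bulk libraries also cannot tell a change in every cell from a change in the share of cells that express a gene.

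Each library held 27350424 to 41757584 counted reads. Among 11 genes known to respond to hypoxia, such as the carbonic anhydrase gene CA9 and the growth factor gene VEGFA, all 9 tested in RKO, 9 of 11 tested in A549 and all 11 in H460 were called higher. Of the 4 epithelial markers, KRT8 and KRT18 were over 0.5 CPM in all 3 lines, whereas the summed level of the list was 103 to 195 CPM in RKO, 2473 to 3107 in A549 and 989 to 1286 in H460. The other markers, EPCAM and CDH1, were over 0.5 CPM in A549. In RKO CDH1 averaged 0.0782 CPM in normoxia and 0.0769 CPM in hypoxia, and EPCAM 4.74 and 5.43 CPM. In H460 EPCAM averaged 0.480 and 0.137 CPM and CDH1 0.480 and 0.524 CPM. Of the 4 intestinal markers, CDX2 was the one detected over 0.5 CPM in RKO, and CDX1 and VIL1 were at 0 there. LGALS4 averaged 0.0133 CPM in normoxic and 0.0390 CPM in hypoxic RKO, but 0.894 and 1.07 CPM in the lung line A549. Of the 4 lung markers, the surfactant genes SFTPB and SFTPC stayed under 0.5 CPM in both lung lines. NAPSA, an aspartic protease gene, averaged 3.58 CPM in normoxia and 4.59 CPM in hypoxia in A549 and 0.55 and 0.64 CPM in H460, and NKX2-1, a lung transcription factor gene, averaged 0.0355 CPM in normoxic and 3.54 CPM in hypoxic H460 and under 0.5 CPM in A549. The blood marker PTPRC and the endothelial marker PECAM1 stayed under 0.5 CPM in every line. COL1A1, a collagen gene listed as a fibroblast marker, averaged 65.1 CPM in normoxia and 279 CPM in hypoxia in A549, whereas the other fibroblast marker, DCN, stayed under 0.5 CPM.

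Long intergenic noncoding RNAs are transcribed by RNA polymerase II from their own loci between protein-coding genes, and many are spliced and polyadenylated, which is why poly(A) selection retains them. They are known for low abundance and for expression in few cell types. Some act in the nucleus on nearby genes, others bind proteins or RNAs in the cytoplasm, and several loci first named in this way were later found to encode small proteins. In hypoxia, hypoxia-inducible factors are stabilised, bind a short core motif in DNA and activate genes of glycolysis, angiogenesis and oxygen transport, and noncoding loci can be among their targets.

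The members were scarce transcripts. They took 0.109% to 0.197% of the reads of a library, and their median level per length, as mean reads per kilobase of gene length, scaled to library size (RPKM), was 0.900 against 7.83 over all genes tested. LINC00657, now named NORAD, a cytoplasmic RNA that binds Pumilio proteins, had the most reads of all members in every library and held 15% to 35.2% of their reads. By mean RPKM it was first at 67.0, followed by LINC00493 at 49.7, LINC00152 (CYTOR) at 35.4, LINC00998 at 33.5, LINC01358 at 22.5 and LINC00263 (OLMALINC) at 22.3. LINC00493 and LINC00998 are now annotated as the small protein genes SMIM26 and SMIM30. These 6 differed in how evenly the lines shared them. LINC00493 stood between 43.3 and 44.4 RPKM in normoxic RKO, 58.1 and 60.9 in normoxic A549 and 51.8 and 53.3 in normoxic H460. LINC01358 stood at 61.9 and 49.7 RPKM in normoxic RKO, at 0.742 and 0.277 in A549 and at 0.0776 and 0 in H460, so that nearly all of its level came from 1 line.

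The spread over lines was narrow for many members. Over 0.5 CPM in 2 or more libraries of the line, 71 members were found in all 3 lines, 39 in 2 lines and 62 in 1 line, and 4 reached the level only when lines were combined. The 62 made up 35.2% of members against 11.7% of all genes tested, and the 71 made up 40.3% against 76.1%. The floor of 0.5 CPM was the same for scarce and abundant genes, and members were scarcer than all genes tested. These shares are therefore not on an equal footing, and genes of matched level were not compared. Of the 62, 32 were found in A549, 21 in H460 and 9 in RKO. The number of members over 0.5 CPM in a library was 74 and 75 in normoxic RKO, 91 and 101 in hypoxic RKO, 128 to 141 in A549 and 111 to 122 in H460.

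**Figure D1:**
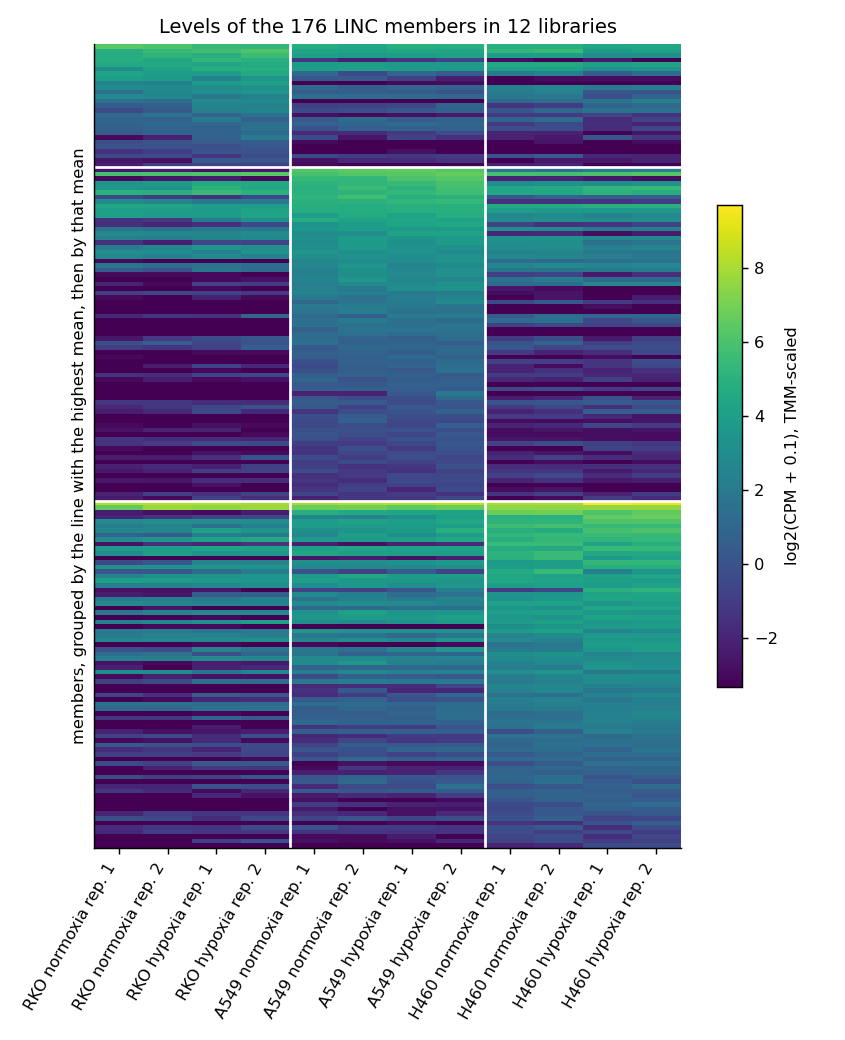
Level of each of the 176 members (horizontal lines) in each of the 12 libraries (columns), as log2 of TMM-scaled CPM plus 0.1, with members grouped by the line in which their mean was highest and ordered by that mean. The group with its highest mean in RKO holds 27 members, that of A549 73 and that of H460 76, and much of each block is dark in the other lines.

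Between normoxic lines, 22 members were higher and 106 lower in RKO than in A549 in the joint edgeR fit, where 26% of all genes were higher and 34.1% lower. Against H460, 20 were higher and 104 lower in RKO, with 27.2% and 34.7% of all genes. Between A549 and H460, 58 members were higher in A549 and 65 in H460, with 26.9% and 25.2% of all genes. In normoxia 13 members were called above both other lines in RKO (17% of all genes were), 51 in A549 (16.3%) and 52 in H460 (16.1%).

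The members with the widest lead of a line were close to absent elsewhere. LINC00664 stood at 5.47 and 5.02 CPM in normoxic RKO, with no read in normoxic A549 or H460. LINC00470 stood at 3.55 and 4.39 CPM in normoxic A549 and LINC00261, whose gene neighbours the endoderm factor gene FOXA2, at 3.0 and 4.63 CPM, both with no read in either normoxic RKO or H460 library. LINC00461, the host gene of a miR-9 precursor and now named MIR9-2HG, stood at 8.79 and 10.6 CPM in normoxic H460, with 1 read in RKO and 0 in A549. LINC00942 stood at 47.6 and 47.1 CPM in normoxic H460 and at 0.0491 to 0.251 CPM in the normoxic libraries of the other lines. These leads are larger than the differences between replicates, and no fold is given where the other lines hold no read. LINC00623, also led by RKO, spans more than 1 Mb in the deposited coordinates, so the locus behind its reads is uncertain.

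**Figure D2:**
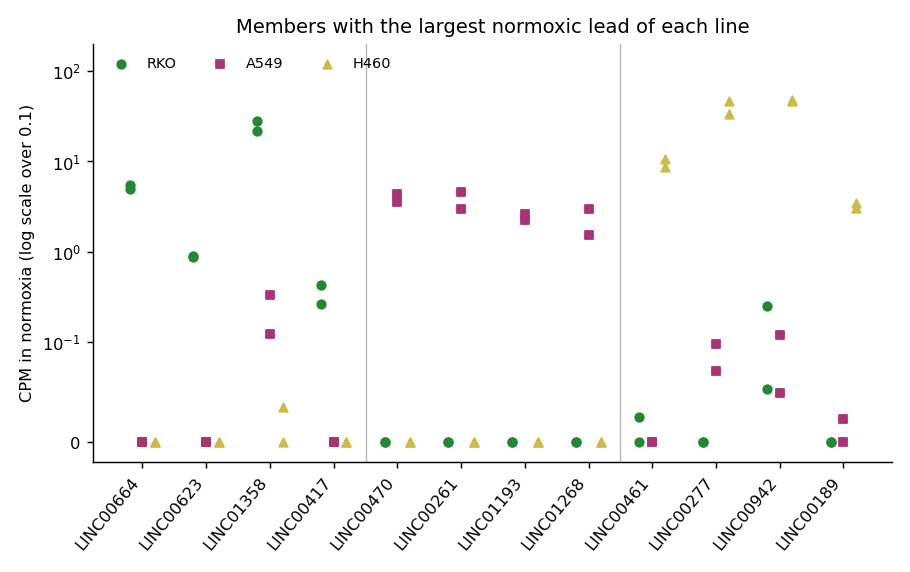
CPM in the normoxic libraries (log scale above 0.1, linear below) of the 4 members with the widest normoxic lead in each line, in the order RKO, A549 and H460, with a point for each library and a marker shape for each line. LINC00942 in H460 stands at 47.6 and 47.1 CPM, and the points of the other lines lie at or near 0 for most of the 12 members.

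Hypoxia moved members in all 3 lines, to different extents. A member was called when the edgeR quasi-likelihood test across all genes of the line gave a Benjamini-Hochberg adjusted p under 0.1 and a fold change over 1.5. In RKO, 34 of 92 tested members were higher in hypoxia (37.0%, where 18.8% of all genes were) and 6 were lower (6.52%, where 15.1% were). The median log2 fold change was 0.37 over the tested members and 0.01 over all genes tested in RKO. Members that passed the level filter through hypoxia alone had to differ: 15 of the 92 exceeded 0.5 CPM in both hypoxic libraries and in no normoxic one, and 13 of these were called higher. Of the 69 over that level in all 4 RKO libraries, 19 were higher and 6 lower. Without RKO hypoxia replicate 2 the member median was 0.15 and that of all genes tested 0.01.

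In A549, 5 of 138 tested members were higher (3.62%, where 2.22% of all genes were) and 0 were lower (where 0.456% were). At an unadjusted p under 0.05, 19 A549 members were higher and 5 lower, beside 1389 and 974 of all 14251 genes, and DESeq2 called 11 higher and 2 lower, where it called 4.27% and 1.85% of all genes. Of 7 members over 0.5 CPM in both hypoxic A549 libraries and in no normoxic one, 2 were called higher. The count in A549 rested on single libraries. Without hypoxia replicate 1 it was 17, with 7.7% of all genes higher and 5.34% lower. Without hypoxia replicate 2 it was 1, and the member median went from 0.15 to -0.05. With the replicate number as a block, 18 members were called higher and 3 lower in A549, and the block also raised the shares of all genes to 8.34% and 5.07%.

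In H460, 38 of 123 tested members were higher (30.9%, where 24.6% of all genes were) and 29 lower (23.6%, where 27.3% were). Here 4 members exceeded 0.5 CPM in both hypoxic libraries and in no normoxic one, of which 4 were called higher, and 10 did so in normoxia alone, of which 6 were called lower. The median log2 fold change of the members was 0.01 and that of all genes tested -0.04. Scaling by library size alone moved the median of all H460 genes to -0.39 on the log2 scale and that of members to -0.34. It gave 23 members higher and 50 lower, where 14.7% of all genes were higher and 40.9% lower. The share of higher among called members went from 56.7% to 31.5%. Directions in H460 are therefore stated relative to the TMM scaling. In RKO and A549 the same change of scaling moved the median of all genes to 0.09 and -0.10.

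**Figure D3:**
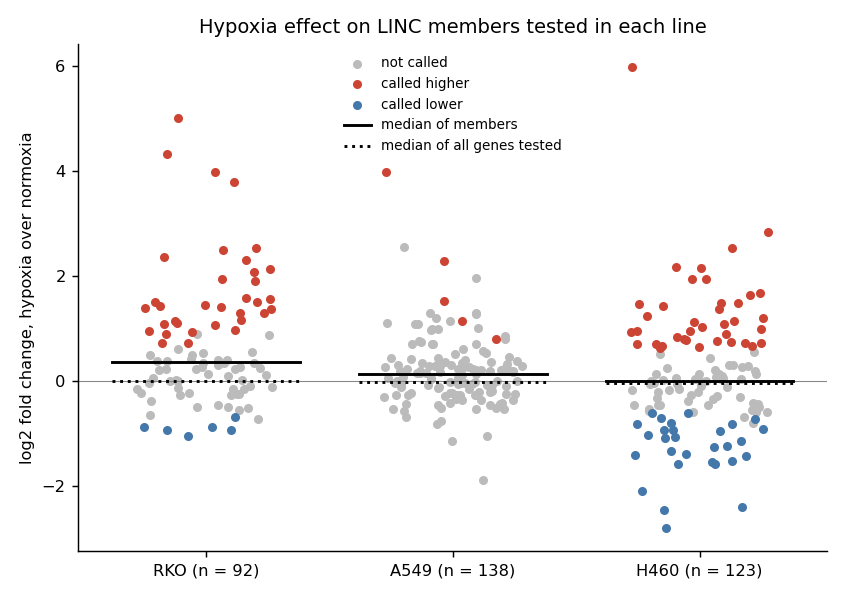
Log2 fold change of hypoxia over normoxia for each member tested in RKO (92), A549 (138) and H460 (123), with members called higher in red, called lower in blue and not called in grey. Solid lines mark the median of the members (0.37, 0.15 and 0.01) and dotted lines the median of all genes tested in that line (0.01, -0.01 and -0.04).

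Across lines, 172 members were tested in at least 1 line, 61 were called higher in at least 1 line (31.6% of all genes were) and 33 lower (30.1% were), and 83 were called in none. The members untested in every line were LINC00634, LINC00640, LINC01134 and LINC01160. Of the 71 members tested in all 3 lines, 2 were called higher in all 3, LINC01011 and LINC00957, where 0.977% of all such genes were. None was called lower in all 3 (0.109% of all genes were) by edgeR or DESeq2, and 0 were lower at an unadjusted p under 0.05 in every line.

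LINC01011, at chr6:2988201-2991405 on the plus strand (GRCh37), rose in every line. It was at 0.850 and 0.728 CPM in normoxic RKO and at 5.50 and 3.01 CPM in hypoxic RKO. In A549 it was at 3.81 and 2.62 CPM in normoxia and at 6.35 and 12.5 CPM in hypoxia. In H460 it was at 3.87 and 4.49 CPM in normoxia and at 11.5 and 15.6 CPM in hypoxia. The conditions did not overlap in any line, and the log2 fold changes were 2.36 ± 0.39 (SE, adjusted p = 0.00113) in RKO, 1.53 ± 0.37 (adjusted p = 0.0953) in A549 and 1.68 ± 0.18 (adjusted p = 5.96e-06) in H460. The differences between lines did not pass the interaction test (adjusted p = 0.346), and the difference RKO minus A549 was 0.88 ± 0.53. The A549 call was lost without A549 hypoxia replicate 2 or A549 normoxia replicate 2.

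LINC00957, at chr7:44078648-44083895 on the plus strand (GRCh37), was scarcer. It was at 0.531 and 0.251 CPM in normoxic RKO and at 1.45 and 0.986 CPM in hypoxic RKO. In A549 it was at 0.214 and 0.392 CPM in normoxia and at 0.982 and 2.07 CPM in hypoxia, and in H460 at 2.91 and 2.67 CPM in normoxia and at 5.87 and 7.47 CPM in hypoxia. The conditions did not overlap in RKO and H460, and in A549 the filter was passed through hypoxia alone. The log2 fold changes were 1.58 ± 0.47 (adjusted p = 0.0224), 2.29 ± 0.53 (adjusted p = 0.0830) and 1.25 ± 0.20 (adjusted p = 0.000139) in RKO, A549 and H460, and the interaction test gave an adjusted p of 0.363. LINC00957 was no longer called in all 3 lines when A549 hypoxia replicate 1, A549 hypoxia replicate 2, A549 normoxia replicate 1, RKO hypoxia replicate 1 or RKO normoxia replicate 2 was left out. With the replicate block, 6 members were called higher in all 3 lines, LINC00263, LINC00482, LINC00663 and LINC00950 in addition to these.

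LINC00887, at chr3:194018989-194030593 on the minus strand (GRCh37), had the largest rise of any member called in H460. It was at 0.390 and 0.586 CPM in normoxic H460 and at 29.0 and 35.2 CPM in hypoxic H460. The conditions lay far apart, with a log2 fold change of 5.99 ± 0.21 (adjusted p = 1.46e-09). In A549 it was at 0.476 and 0.491 CPM in normoxia and at 1.01 and 4.89 CPM in hypoxia, a log2 fold change of 2.57 ± 0.67 that did not pass the test (adjusted p = 0.117). In RKO it had 2 and 2 reads in normoxia and 3 and 0 in hypoxia and was not tested. The effect in A549 was smaller than that in H460 by 3.43 ± 0.85 on the log2 scale (adjusted p = 0.00908 for the difference).

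LINC00657 (NORAD), at chr20:34633540-34638882 on the minus strand (GRCh37), changed in H460 alone among the 3 tests. It was at 266 and 271 CPM in normoxic H460 and at 842 and 700 CPM in hypoxic H460, a log2 fold change of 1.5 ± 0.11 (adjusted p = 1.6e-07). In RKO its conditions overlapped, with 316 and 300 CPM in normoxia and 322 and 271 CPM in hypoxia, and in A549 they did as well, with 262 and 290 CPM in normoxia and 285 and 349 CPM in hypoxia. The effect in H460 exceeded that in RKO by 1.58 ± 0.22 on the log2 scale (adjusted p = 0.00018) and that in A549 by 1.32 ± 0.22 (adjusted p = 0.000757). Both differences were larger than the spread between replicates.

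**Figure D4:**
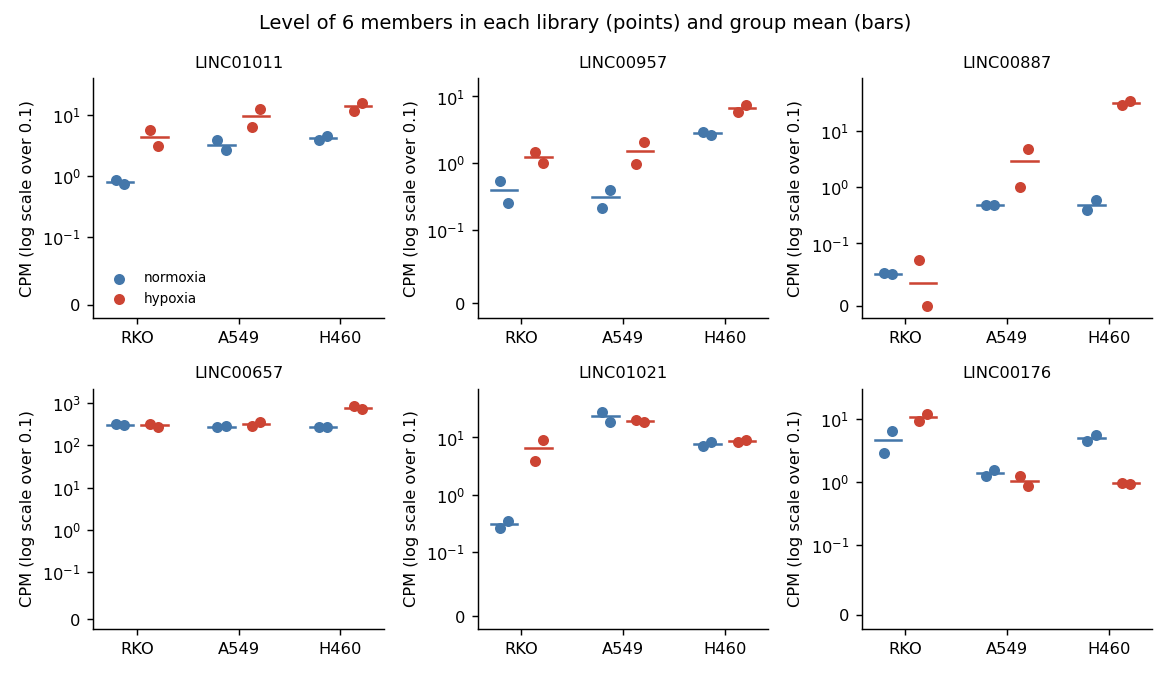
CPM of 6 members in each library (log scale above 0.1, linear below), with normoxia in blue, hypoxia in red, a point for each library and a bar for the mean of the 2. LINC01011 and LINC00957 are higher in hypoxia in every line, LINC00887 and LINC00657 mainly in H460 (to 35.2 and 842 CPM), LINC01021 in RKO (to 9.17 CPM), and LINC00176 is higher in hypoxic RKO and lower in hypoxic H460.

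The starts of these RNAs were read against the core letters to which hypoxia-inducible factors bind, ACGTG or GCGTG on either strand. RefSeq promoter windows (GRCh38.p14, 250 bases before to 50 after the start) were matched by symbol or synonym, and 158 windows of members were found, some genes having several. Of these 50% held at least 1 match, and 48.4% of all 35116 promoter windows did. The share was 55.3% of 47 windows of members called higher in at least 1 line, 34.4% of 32 called lower and 53.0% of 83 called in none. These are shares of windows and not of genes. LINC00478 alone gave several of the 32, none with a match, which lowers that share. Members called in opposite directions, such as LINC00176 and LINC01341, are in both the higher and the lower set. No test was made, and a match is only a run of letters. No window was given for LINC01011. The windows printed below are a selection, so the share of them with a match has no meaning. Of other members called higher, LINC01021, LINC00189 and LINC01125 had windows without a match, and LINC00173 and LINC00893 had windows with matches. The windows of 7 members on which the results turn are written 5′ to 3′ in lower case with the matches in capitals, for LINC00957 (higher in all 3 lines, chr7:44038799-44039098, plus strand, no match), LINC00887 (chr3:194312755-194313054, minus strand, 1 match beginning at -143 from the start) and LINC00657 (chr20:36050911-36051210, minus strand, 3 matches, 2 of them the same CACGTG read on both strands), both higher in H460, LINC00482 (chr17:81309199-81309498, minus strand, 1 match across the start), LINC00894 (chrX:149938298-149938597, plus strand, 8 matches) and LINC00263 (chr10:100373326-100373625, plus strand, 1 match), all 3 higher in RKO and H460, and LINC01341 (chr1:246789367-246789666, plus strand, no match), higher in RKO and lower in H460.
LINC00957: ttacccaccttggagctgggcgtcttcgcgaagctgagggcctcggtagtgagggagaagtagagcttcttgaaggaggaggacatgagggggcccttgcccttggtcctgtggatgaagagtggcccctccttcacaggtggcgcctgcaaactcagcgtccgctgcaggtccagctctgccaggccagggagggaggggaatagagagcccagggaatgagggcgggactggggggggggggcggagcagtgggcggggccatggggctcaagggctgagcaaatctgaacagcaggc
LINC00887: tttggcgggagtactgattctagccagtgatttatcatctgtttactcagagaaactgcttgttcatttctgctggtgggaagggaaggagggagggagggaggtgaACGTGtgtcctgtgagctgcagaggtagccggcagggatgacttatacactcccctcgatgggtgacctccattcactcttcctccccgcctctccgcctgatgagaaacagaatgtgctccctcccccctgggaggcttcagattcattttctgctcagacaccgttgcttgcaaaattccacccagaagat
LINC00657: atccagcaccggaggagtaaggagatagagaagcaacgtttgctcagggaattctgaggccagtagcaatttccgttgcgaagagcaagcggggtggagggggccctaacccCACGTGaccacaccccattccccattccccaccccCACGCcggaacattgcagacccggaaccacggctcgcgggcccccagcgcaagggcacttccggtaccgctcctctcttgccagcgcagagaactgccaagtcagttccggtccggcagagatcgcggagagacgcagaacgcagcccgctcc
LINC00482: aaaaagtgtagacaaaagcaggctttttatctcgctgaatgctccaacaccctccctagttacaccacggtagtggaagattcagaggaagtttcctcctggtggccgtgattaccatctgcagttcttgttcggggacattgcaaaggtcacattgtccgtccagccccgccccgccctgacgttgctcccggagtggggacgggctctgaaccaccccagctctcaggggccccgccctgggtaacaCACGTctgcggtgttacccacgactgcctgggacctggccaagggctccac
LINC00894: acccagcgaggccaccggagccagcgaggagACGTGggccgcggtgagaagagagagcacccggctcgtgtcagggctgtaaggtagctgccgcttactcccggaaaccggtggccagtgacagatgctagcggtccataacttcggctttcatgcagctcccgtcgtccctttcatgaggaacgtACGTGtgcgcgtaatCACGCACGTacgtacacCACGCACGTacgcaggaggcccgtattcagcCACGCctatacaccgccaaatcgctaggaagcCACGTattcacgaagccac
LINC00263: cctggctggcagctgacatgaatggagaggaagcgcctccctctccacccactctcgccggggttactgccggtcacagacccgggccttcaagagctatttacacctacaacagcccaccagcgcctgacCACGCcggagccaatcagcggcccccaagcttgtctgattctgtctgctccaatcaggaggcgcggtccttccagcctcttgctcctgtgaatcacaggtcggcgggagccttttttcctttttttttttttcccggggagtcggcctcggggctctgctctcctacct
LINC01341: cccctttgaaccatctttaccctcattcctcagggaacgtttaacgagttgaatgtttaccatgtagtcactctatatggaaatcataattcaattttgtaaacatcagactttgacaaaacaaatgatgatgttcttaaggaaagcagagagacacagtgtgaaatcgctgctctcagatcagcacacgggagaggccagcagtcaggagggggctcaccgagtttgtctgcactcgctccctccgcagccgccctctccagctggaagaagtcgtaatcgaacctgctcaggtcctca

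In RKO the largest rises were in RNAs nearly silent in normoxia, and LINC01164, LINC01021, LINC00173 and LINC00520 all passed the RKO filter through hypoxia alone. LINC01164 was at 0.0266 and 0.126 CPM in normoxia and at 1.58 and 3.86 CPM in hypoxia, a log2 fold change of 5.02 ± 0.68 (adjusted p = 0.000456). LINC01021, now named PURPL and known as a p53-induced RNA, was at 0.266 and 0.351 CPM in normoxia and at 3.89 and 9.17 CPM in hypoxia, a log2 fold change of 4.33 ± 0.49 (adjusted p = 0.0002). The level that LINC01021 reached in hypoxic RKO was near its level in normoxic H460, at 7.06 and 8.36 CPM, and under that in normoxic A549, at 27.8 and 18.8 CPM. In those lines it had no call, and the effect in RKO exceeded that in A549 by 4.64 ± 0.53 and that in H460 by 4.21 ± 0.54 on the log2 scale (adjusted p = 0.000399 and 0.000122). LINC00173 was at 0.106 and 0.0753 CPM in normoxia and 1.28 and 1.44 CPM in hypoxia in RKO, a log2 fold change of 3.80 ± 0.52, and it also rose in H460 by 0.82 ± 0.13. In A549 LINC00173 stood at 7.12 and 4.66 CPM in normoxia and 2.47 and 2.97 CPM in hypoxia (log2 fold change -1.13 ± 0.33, adjusted p = 0.150, not called). LINC00520 was at 0.0797 and 0.0502 CPM in normoxic RKO and at 1.18 and 1.07 CPM in hypoxic RKO.

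LINC01125, LINC00894 and LINC00893 rose in RKO from levels near 1 CPM. LINC00894 was at 0.638 and 1.15 CPM in normoxia and at 5.62 and 5.12 CPM in hypoxia, a log2 fold change of 2.51 ± 0.35 (adjusted p = 0.000524), and in H460 it went from 13.6 and 15.7 CPM to 40.8 and 39.4 CPM (1.43 ± 0.11, adjusted p = 3.27e-07). In A549 its rise of 0.45 ± 0.24 did not pass the test, and both other lines exceeded A549 in the test of the difference. LINC00893 rose by 2.13 ± 0.37 in RKO and by 0.68 ± 0.17 in H460. LINC00894 and LINC00893 are now named EOLA2-DT and EOLA1-DT and lie beside the near-identical genes CXorf40B and CXorf40A, so reads could be split between the copies and their separate values are uncertain. LINC01125 was at 0.638 and 1.13 CPM in normoxic and 4.98 and 5.81 CPM in hypoxic RKO (2.54 ± 0.35).

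Falls in RKO were smaller. LINC00998 (SMIM30), which encodes a small membrane protein, was at 79.2 and 68.4 CPM in normoxia and at 44.9 and 39.3 CPM in hypoxia, a log2 fold change of -0.87 ± 0.16 (adjusted p = 0.00214). In H460 LINC00998 stood 0.46 ± 0.10 lower on the log2 scale in hypoxia, under the minimum fold for a call, and in A549 it had a log2 fold change of 0.29 ± 0.20. The other 5 lower members were LINC01311 at -1.04 ± 0.44, LINC00909 at -0.92 ± 0.31, LINC01245 at -0.92 ± 0.31, LINC01234 at -0.86 ± 0.26 and LINC01123 at -0.67 ± 0.28. For LINC01245 the hypoxic replicates stood apart, at 5.32 and 10.9 CPM, with 15.6 and 13.9 CPM in normoxia. Without RKO normoxia replicate 1 the calls of all 6 but LINC00998 were lost, and without RKO hypoxia replicate 1 those of LINC01311, LINC00909, LINC01245 and LINC01123 were. The count of called members in RKO was 22 without hypoxia replicate 1 and 22 without normoxia replicate 1, against 40 with all libraries.

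The 5 members called in A549 were LINC01011, LINC00957, LINC00051, LINC01116 and LINC00842. LINC00051 had no read in any RKO or H460 library. In A549 it was at 0.143 and 0.147 CPM in normoxia and at 1.08 and 3.75 CPM in hypoxia, a log2 fold change of 4.0 ± 0.68 (adjusted p = 0.0268). LINC01116 went from 7.74 and 8.63 CPM to 18.5 and 18.5 CPM, a log2 fold change of 1.16 ± 0.22 (adjusted p = 0.0471), while in RKO its conditions overlapped at 5.99 to 7.49 CPM. LINC00842 was at 42.7 and 39.3 CPM in normoxia and at 67.7 and 77.6 CPM in hypoxia (0.81 ± 0.18, adjusted p = 0.0752) and under 0.2 CPM in every library of the other lines. The A549 conditions of LINC01116, LINC00842 and LINC01011 did not overlap. LINC00051 and LINC00957 passed the A549 filter through hypoxia alone, so that non-overlap was given by the filter for them. The call of LINC00842 was lost without A549 hypoxia replicate 2 or A549 normoxia replicate 2, and that of LINC01116 was kept with any A549 library left out.

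In H460 the rises were spread over scarce and abundant members. LINC00482 was at 31.3 and 32.6 CPM in normoxia and at 93.6 and 107 CPM in hypoxia, a log2 fold change of 1.64 ± 0.10 (adjusted p = 5.13e-08), and the RKO change of 1.18 ± 0.52 was called as well (adjusted p = 0.0933), though not without RKO normoxia replicate 1, and LINC00482 passed the RKO filter through hypoxia alone. LINC00189, hardly detected in RKO and A549, went from 3.05 and 3.46 CPM to 14.4 and 15 CPM (2.15 ± 0.16). LINC01176 was at 0.780 and 1.44 CPM in normoxia and at 5.11 and 3.75 CPM in hypoxia (1.95 ± 0.30). LINC00263 (OLMALINC) was at 29.7 and 26.1 CPM in normoxia and at 58.9 and 66.2 CPM in hypoxia, a log2 fold change of 1.15 ± 0.11 (adjusted p = 1.43e-06). In RKO LINC00263 rose by 1.14 ± 0.26 and in A549 it had a change of 1.11 ± 0.33 that did not pass the test (adjusted p = 0.159). Those 3 estimates are close to each other, and the average over lines was 1.17 ± 0.17 with an interaction adjusted p of 0.995.

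The falls in H460 included RNAs that this line led in normoxia. LINC00942 went from 47.6 and 47.1 CPM in normoxia to 17.9 and 28 CPM in hypoxia (-1.05 ± 0.16, adjusted p = 9.87e-05). LINC00277, now named EWSAT1 and first described in Ewing sarcoma, went from 33.5 and 46.4 CPM to 12.4 and 18.4 CPM (-1.38 ± 0.18). LINC00461, also led by H460 in normoxia, stood at 13.6 and 15.6 CPM in hypoxia, a change of 0.57 ± 0.15 that was under the minimum fold. LINC00189, another of the widest normoxic leads of H460, was called higher. Such leads were chosen on the same normoxic values from which these changes are measured. LINC00346 went from 3.87 and 5.54 CPM to 1.22 and 2.26 CPM (-1.43 ± 0.29), LINC00669 from 1.77 and 2.32 CPM to 0.211 and 0.521 CPM (-2.44 ± 0.39) and LINC00852 from 0.886 and 1.23 CPM to 0.169 and 0.139 CPM (-2.79 ± 0.47). LINC00669 and LINC00852 passed the H460 filter, which used CPM without TMM scaling, through normoxia alone. LINC01123 was lower in H460 (-1.51 ± 0.30) as in RKO.

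RKO and H460 had 75 members tested in common. Of these, 14 were called higher in both (8.79% of all genes tested in both were), namely LINC00173, LINC00263, LINC00482, LINC00659, LINC00663, LINC00893, LINC00894, LINC00899, LINC00950, LINC00957, LINC00963, LINC01011, LINC01125 and LINC01273, and 2, LINC00909 and LINC01123, were called lower in both (9.19% of all genes were). LINC00173, LINC00482, LINC00950 and LINC01273 passed the RKO filter through hypoxia alone, and LINC00663 passed the H460 filter in the same way. The filter therefore favoured a higher call for these members, which raises the share called higher in both. The H460 calls of LINC00173, LINC00893, LINC00963 and LINC01125 were lost under scaling by library size alone, with the same direction.

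The 5 members called in opposite directions were all higher in RKO and lower in H460, namely LINC00176, LINC01341, LINC01137, LINC00342 and LINC00265, out of 172 tested members, where 2.37% of all genes were called oppositely in a pair of lines. LINC00176, now annotated as the protein-coding gene C20orf204, was at 2.87 and 6.5 CPM in normoxic RKO and 9.29 and 11.8 CPM in hypoxic RKO. In H460 it was at 4.43 and 5.45 CPM in normoxia and 0.971 and 0.939 CPM in hypoxia. The log2 fold changes were 1.11 ± 0.35 and -2.39 ± 0.25, and their difference of 3.54 ± 0.51 had an adjusted p of 0.000254. In A549 its conditions overlapped.

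LINC01341 was at 1.04 and 1.08 CPM in normoxic and 2.17 and 4.37 CPM in hypoxic RKO, and at 25.1 and 44.5 CPM in normoxic and 5.15 and 11.3 CPM in hypoxic H460. The difference of the effects was 3.70 ± 0.66 on the log2 scale (adjusted p = 0.00109). LINC01137 was at 0.266 and 0.10 CPM in normoxic and 0.567 and 0.533 CPM in hypoxic RKO, near the lower limit of the filter. It passed the RKO filter through hypoxia alone, so non-overlap in RKO was given by the filter. In H460 LINC01137 went from 8.30 and 8.53 CPM to 2.74 and 2.99 CPM (difference 3.14 ± 0.60, adjusted p = 0.00179). LINC00342 went from 28.2 and 42.4 CPM to 52.7 and 69.9 CPM in RKO and from 37.8 and 43.6 CPM to 13.8 and 17.3 CPM in H460 (difference 2.18 ± 0.29, adjusted p = 0.000146). LINC00265 went from 7.97 and 18.0 CPM to 29.2 and 27.8 CPM in RKO and from 15.4 and 16.7 CPM to 10.3 and 11.1 CPM in H460 (difference 1.71 ± 0.39, adjusted p = 0.00491). All 5 kept both calls under scaling by library size alone. Without RKO normoxia replicate 1, which held the lower normoxic values of LINC00176, LINC00342 and LINC00265, the members called oppositely were LINC01137 and LINC01341. The RKO call was also lost for LINC00342 without RKO hypoxia replicate 2 and for LINC01137 without RKO normoxia replicate 2, and the H460 call of LINC00265 without H460 hypoxia replicate 1 or H460 normoxia replicate 2.

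**Figure D5:**
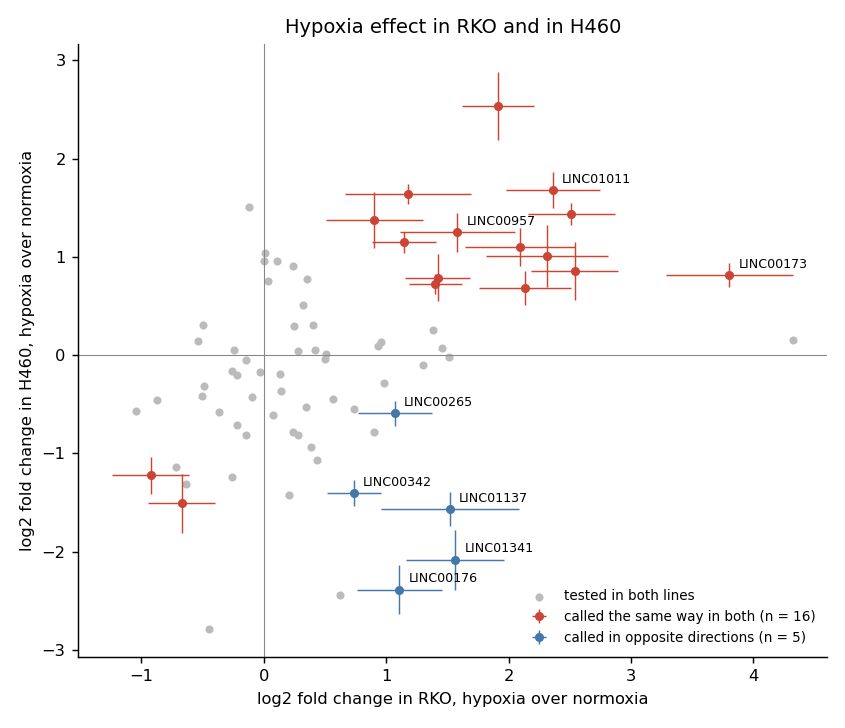
Log2 fold change of hypoxia over normoxia in RKO (horizontal) and H460 (vertical) for the 75 members tested in both lines, with error bars of 1 SE on those called in both. Red points were called the same way in both lines, and the 5 blue points at lower right were called higher in RKO and lower in H460.

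Over all 3 lines, the effect of hypoxia differed between lines for 61 of the 176 members (34.7%, where 48.8% of all genes did; interaction test at an adjusted p under 0.1). The pair RKO and A549 differed for 19 members (14.6% of all genes did), RKO and H460 for 46 (37.6%) and A549 and H460 for 36 (36%). With the replicate block the RKO and A549 count was 32. It was 11 without RKO normoxia replicate 1, 12 without A549 hypoxia replicate 1 and 12 without A549 normoxia replicate 2. Without H460 normoxia replicate 2 the 61 became 36, the 46 became 28 and the 36 became 19, and without H460 hypoxia replicate 1 the 61 became 37 and the 36 became 21. Averaged over lines, 30 members were higher (14.8% of all genes were) and 8 lower (11.5%), led among those called in all 3 lines by LINC01011 at 1.89 ± 0.21 on the log2 scale. Members with no read in a line had no defined effect there, which limits what these joint tests could call. For LINC00051, without a read in RKO or H460, the average had an SE of 2740. The member shares are therefore not on an equal footing with those of all genes.

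Among 14 LINC genes listed for rising nascent RNA in hypoxic HCT116 colon cells, 6 were members, LINC00887, LINC00673, LINC00511, LINC00704, LINC00672 and LINC01011. The list rests on newly made RNA after a much shorter hypoxia, whereas the libraries here hold accumulated poly(A)-selected RNA. According to the paper, many long noncoding RNAs were among the transcripts that rose in nascent RNA only. Line, duration and kind of RNA therefore cannot be told apart in this comparison. LINC01011 alone was called higher in RKO (1 of 2 tested) and in A549 (1 of 6), and LINC01011 and LINC00887 in H460 (2 of 4), beside 18.8%, 2.22% and 24.6% of all genes. LINC00704, detected over 0.5 CPM in A549 only, stood at 4.95 and 3.75 CPM in normoxia and 8.93 and 9.92 CPM in hypoxia there (log2 fold change 1.10 ± 0.27, adjusted p = 0.104). LINC00673 was at 37.6 and 52.3 CPM in normoxic and 28.5 and 32.7 CPM in hypoxic A549 (-0.57 ± 0.22, not called). In the order RKO, A549 and H460 the list medians, over only 2, 6 and 4 tested members, were 1.05, 1.10 and 0.84, beside 0.01, -0.01 and -0.04 over all genes tested.

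Of 22 lincRNAs known from cancer work, 20 were members. In RKO 2 of 14 tested were higher, LINC00520 and LINC00963 (18.8% of all genes were), and LINC01234 was lower (15.1%). LINC00963 went from 10.9 and 9.59 CPM to 33.2 and 23.4 CPM in RKO (1.4 ± 0.22) and from 22.8 and 25.7 CPM to 38.6 and 42.4 CPM in H460 (0.72 ± 0.11). In A549 1 of 18 was called higher, LINC01116 (2.22% of all genes were). In H460 3 of 14 were higher, LINC00657, LINC00963 and LINC00472, and 4 lower, LINC00312, LINC00346, LINC00467 and LINC00857, shares near those of all genes (24.6% and 27.3%). LINC00152 (CYTOR), an RNA known from cytoskeletal regulation, was not called in any line, with log2 fold changes of 0.32 ± 0.20, 0.42 ± 0.20 and 0.51 ± 0.12. In the same order of lines the list medians were 0.10, 0.09 and -0.22.

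Some members no longer count as noncoding. By symbol or synonym in the RefSeq gene table, 129 of 176 were matched to lncRNA genes under the same symbol and 31 under another, 14 to protein-coding genes, 1 to a transcribed pseudogene and LINC00086 to none. Of 13 LINC symbols listed for later-found small proteins, 8 were members, and LINC00998 was the 1 called, lower, of 5 tested in RKO (15.1% of all genes were lower). In H460 2 of 8 were higher, LINC00086 and LINC00862, a share near the 24.6% of all genes, and LINC00467 was lower (27.3% of all genes were). LINC00862, which passed the H460 filter through hypoxia alone, was at 0.142 and 0.234 CPM in normoxic and 1.39 and 1.46 CPM in hypoxic H460 (2.85 ± 0.40). The 7 tested in A549 had adjusted p values of 0.261 to 0.909. LINC00493 (SMIM26), a mitochondrial small protein gene, had log2 fold changes of -0.49 ± 0.18, 0.06 ± 0.19 and 0.31 ± 0.10 in RKO, A549 and H460, none of them called. Medians over this list were -0.49, 0.14 and -0.29 in that order.

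Position was read from the deposited coordinates for 173 members. Of these, 26 started head to head with a gene on the other strand within 5 kb, 19 overlapped a gene on the other strand and 33 started within 10 kb downstream of a gene on the same strand. A small RNA gene was held by 3, and 96 were in none of these 4 classes, with some members in several. Overlap with a gene on the same strand, found for 8, was not used in counting the 96. LINC00152, LINC00649, LINC00842 and LINC00886 are among the 96 and have such an overlap. In RKO, where 18.8% of all genes were higher and 15.1% lower, 8 of 18 tested downstream members were higher and 1 lower. Of 46 tested in none of the 4 classes, 20 were higher and 4 lower. In H460, where 24.6% and 27.3% of all genes were higher and lower, 5 of 25 downstream members were higher and 10 lower. Of 65 tested in none of the 4 classes, 23 were higher and 12 lower. These counts include members that passed the RKO filter through hypoxia alone. Examples are LINC00260, LINC00304, LINC00482 and LINC00950 among the downstream members. LINC00173, LINC00417, LINC00520, LINC01021 and LINC01164 are examples in none of the classes. The filter favoured a higher call for them, so the class shares are not on an equal footing with those of all genes. In H460 it likewise favoured calls of members that passed through hypoxia or normoxia alone. Among pairs of a downstream member and its upstream gene that were both called, the direction was the same in 4 of 4 in RKO and in 3 of 5 in H460. These pairs include LINC00950 and TMEM8B, which are not separate genes in the RefSeq gene table.

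LINC00263 starts 8745 bases downstream of SCD, which encodes stearoyl-CoA desaturase, and both rose in RKO (SCD 0.64 ± 0.17) and in H460 (SCD 1.25 ± 0.12). LINC00294 starts 2587 bases downstream of TCP11L1, and both rose in RKO, by 0.94 ± 0.19 and 0.82 ± 0.18. LINC00950 starts 5427 bases downstream of TMEM8B and rose with it in RKO and H460, but its symbol is now a synonym of TMEM8B, so the pair is not 2 separate genes in that annotation. LINC01245 starts 9755 bases downstream of CCAT1, another noncoding RNA, and both were lower in RKO (CCAT1 -0.73 ± 0.17). Head-to-head pairs went both ways. LINC00115 and LINC01128 are both members and start 69 bases apart on opposite strands. In H460 LINC00115 went from 5.42 and 7.15 CPM to 13 and 13.2 CPM (1.04 ± 0.16), and LINC01128 went from 14.9 and 15.1 CPM to 8.65 and 8.97 CPM (-0.78 ± 0.13). LINC00894 starts 50 bases from CXorf40B, which was called in H460 (1.83 ± 0.10) and not in RKO (-0.17 ± 0.20), where LINC00894 rose.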

How the data were processed

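Poly(A)+ RNA from 12 cultures was measured, 2 per line and oxygen condition, which the study's methods describe as independent biological duplicates. According to the submitters' processing notes, the authors aligned reads to GRCh37/hg19 with TopHat2 2.0.13 and Bowtie2 2.2.3.0, handled alignments with SAMtools 1.3.1 and Picard 1.129, and counted exon reads per gene with HTSeq 0.6.1. The methods give another SAMtools version. The deposited counts entered all main fits. The authors also deposited RPKM values, which are counts scaled for gene length and for the total of each library. These served for levels per length and in limma alternatives. Deposited starts count from 0 and are printed here from 1.

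CPM values are scaled by TMM factors, except in the filter. Each line was fitted on its 4 libraries by the quasi-likelihood F test of edgeR 4.0.16 (R 4.3.3; genes over 0.5 CPM in at least 2 of them, Benjamini-Hochberg adjustment over all genes tested, called at adjusted p under 0.1 and fold change over 1.5). A joint fit of 12 libraries gave average effects, differences between lines (adjusted p alone) and normoxic contrasts. All adjusted p values are from edgeR unless DESeq2 1.42.0 or limma 3.58.1 is named, and errors are SE. Alternatives were DESeq2, RLE factors, library size, other filters and thresholds, limma on log2(RPKM + 0.1) and log2(RPKM + 1), a replicate block and leaving out each library. Deviations of same-numbered libraries from their group means correlated over genes at 0.356 in RKO, 0.377 in A549 and 0.151 in H460. The main fits had no replicate block and ignored this pairing, which entered only through the replicate block among the alternatives. The scripts were tested on simulated counts.

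Members, lists and tests were chosen with earlier results of these data known. Named genes are members called in all lines or oppositely, the 6 highest and 5 lowest called per line (mean of at least 50 counts, conditions not overlapping), the 6 highest by mean RPKM, the 5 smallest interaction p values, the 4 widest normoxic leads per line, the 3 lists and close neighbours. Others, such as LINC00051, LINC00520, LINC00852 and LINC00669, were named after their values were seen. Members spanning over 1 Mb were left out of the position classes, a limit set after the data were seen. Promoter letters come from RefSeq (GRCh38.p14).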

Additional observations from a re-analysis of the deposited data

Results flagged for a closer look

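The effect of hypoxia differed between lines in the joint edgeR test (interaction adjusted p under 0.1) for 20 named members, and for each the pair of lines farthest apart is given as a difference of log2 fold changes. Between RKO and A549 the differences were 5.06 ± 1.26 (SE) for LINC01164, 4.98 ± 0.49 for LINC00173, 4.64 ± 0.53 for LINC01021, 2.26 ± 0.38 for LINC00893, 2.11 ± 0.33 for LINC00894 and 1.73 ± 0.53 for LINC01125, all higher in RKO, and -1.11 ± 0.21 for LINC00998, which was lower in RKO. Between RKO and H460 they were 3.70 ± 0.66 for LINC01341, 3.54 ± 0.51 for LINC00176, 3.14 ± 0.60 for LINC01137, 2.18 ± 0.29 for LINC00342, 1.71 ± 0.39 for LINC00265 and 1.69 ± 0.58 for LINC00346. The difference was negative, with the larger value in H460, for LINC00887 at -6.41 ± 2.20, LINC01176 at -1.99 ± 0.88, LINC00657 at -1.58 ± 0.22 and LINC01234 at -1.21 ± 0.43. LINC00887 had 7 reads in all in RKO and LINC01234 under 0.5 CPM in H460, so those differences rest on few reads in 1 line. Between A549 and H460 the differences were 2.48 ± 0.64 for LINC01116, 2.11 ± 0.76 for LINC00842 and 1.26 ± 0.46 for LINC01123. LINC01116 and LINC00842 were near 0 in H460. For LINC01176 the pair itself had an adjusted p of 0.104, while its interaction had 0.0207. With single libraries left out, the pair differences of LINC00887, LINC01164, LINC00346, LINC00842, LINC01123, LINC01125 and LINC01234 no longer passed the test in at least 1 case. Groups of 2 libraries are too small for a test of a single library against the others.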

How the results depend on the processing

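The count of members called in A549 was 5 and became 13 with DESeq2, 16 in the joint fit, 13 with no filter, 3 with a filter of 1 CPM, 2 with library size alone, 1 with limma on log2(RPKM + 0.1), 0 with that scale and no filter, 0 with log2(RPKM + 1) and 21 with the replicate block, and leaving out a library gave 1 to 17. The count called in all 3 lines was 2 and became 4 in the joint fit, 6 with the block, 0 with library size alone, 0 with each of the 3 limma settings and 0 with a filter of 1 CPM, and 0 to 4 without a library. The count in H460 was 67 and became 39 at a fold change over 2 and 42 with limma on log2(RPKM + 1), and 56 to 66 without a library. In RKO it was 40 and became 25 with limma on log2(RPKM + 1), and 22 to 37 without a library. The interaction count of 61 was 36 to 62 without a library, that of RKO minus H460 (46) 28 to 48, that of A549 minus H460 (36) 19 to 40 and that of RKO minus A549 (19) 11 to 24, or 32 with the block. The count of members was 176, or 173 with TMM-scaled CPM and 145 with a filter of 1 CPM. No called effect of a named member changed sign, but medians over members did: that of A549 (0.15) was -0.05 without hypoxia replicate 2, and that of H460 (0.01) was -0.34 with library size alone, -0.31, -0.24 and -0.18 with the limma settings, and -0.06 and -0.08 without normoxia replicate 1 or hypoxia replicate 2. The H460 calls went from 38 higher and 29 lower to 23 and 50 with library size and to 22 and 48 with limma on log2(RPKM + 0.1). Of all H460 genes, 14.7% were higher and 40.9% lower with library size, and 14.3% and 39.7% with that limma setting. The block moved no other count by over 1.5 times. The causes of these moves were not tested. With 2 libraries per group the median SE of a member's log2 fold change was 0.31, 0.34 and 0.19 in RKO, A549 and H460, against 0.18, 0.22 and 0.11 over all genes tested, which limits what could be called among scarce RNAs.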
